A study of Mus musculus with 10 samples.

Results

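Inner hair cells (IHCs) were compared with supporting cells (SCs) of the mature mouse cochlea by bulk RNA-seq of handpicked fluorescent cells. The comparison used 4 of the 10 libraries of the series, with 2 libraries of each cell type. The library was read from the name of the count file, because 4 of the 10 files were attached to the record of another library. SCs (Deiters' cells and pillar cells) were from Fgfr3iCreER+ mice that carried Rosa26-CAG-loxP-stop-loxP-tdTomato+ and were given tamoxifen at P12 and P13, in 1 library at P27 and 1 at P26. IHCs were from Pval-Cre+ mice without tamoxifen, in 1 library at P74 and 1 at P75. The study lists the same tdTomato reporter for them. The IHC labels name the reporter line Ai9, whereas the study names its tdTomato line Ai14. Mature outer hair cells (OHCs) from prestin-YFP knock-in mice without tamoxifen, in 1 library at P21 and 1 at P22, are set beside them where the difference between the hair cell types was tested. Each group rests on its own label: Fgfr3iCreER with tamoxifen marks Deiters' and pillar cells, while Pval-Cre also gives a weak label in OHCs. Cell type, age, Cre driver, tamoxifen and the number series of the libraries changed together between IHCs and SCs and cannot be told apart.

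IHCs are the primary sensory cells of hearing. They turn deflection of their stereocilia into release of glutamate at ribbon synapses, using otoferlin as calcium sensor and VGLUT3 to fill the vesicles, and they share with OHCs the mechanotransduction machinery and transcription factors such as POU4F3 and GFI1. Deiters' and pillar cells hold the hair cells in place with bundles of microtubules, couple through gap junctions, take up potassium, and keep SOX2, Notch effectors and the cell cycle inhibitor p27Kip1.

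Reads counted on genes were 22597688 and 40518766 in SCs (P27 and P26) and 27301979 and 26513178 in IHCs (P74 and P75). Of the aligned reads, 31.5% and 35.7% in SCs and 48.4% and 47.9% in IHCs fell on no gene, and the part of this in the results was not tested. Levels are given as CPM (the counts of a gene relative to those of its library, scaled by TMM), not corrected for gene length, always in the order of P27 and P26 for SCs, P74 and P75 for IHCs and P21 and P22 for OHCs, and libraries are named by these ages. Differences are log2 fold changes of IHCs over SCs ± SE, with the adjusted p (FDR) of edgeR's quasi-likelihood test. Where a cell type had no count, the difference is a bound against 3 counts over its 2 libraries (0.0499 CPM in SCs and 0.051 CPM in IHCs), and where it had 1 to 3 counts it is a ratio with a counting interval, which covers counting error only. The study describes the libraries of a cell type as biological duplicates, and the labels do not say how many animals each library drew on. By its account, more cells per library were collected on average for IHCs than for SCs or mature OHCs. The spread of that number was also widest for IHCs, and the part of cell number in the results was not tested. The p-values measure the spread between libraries of a cell type, estimated over all 10 libraries of the series. These include converted hair cells and OHCs at P7, which are not compared here. A gene that did not pass can therefore have SC and IHC libraries that are each close together.

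More genes were called higher than lower in IHCs, and many of the genes called higher were nearly absent from SCs. Of 16891 genes tested, 376 were higher in IHCs (2.23%) and 71 were lower (0.420%) at an FDR under 0.05. The median log2 fold change was 7.59 over the genes higher, -4.93 over the genes lower and 0.00 over all genes tested. Both IHC libraries exceeded 10 CPM and both SC libraries stayed under 1 CPM for 179 of the 376 genes, and the reverse held for 16 of the 71. For all 447 called genes the libraries of the cell types did not overlap, as also held for 24.9% (IHCs above SCs) and 22.3% (IHCs below SCs) of all genes tested. Leaving out the P27 SC library left 214 genes higher and 35 lower, leaving out the P26 SC library left 249 and 28, leaving out the P74 IHC library left 251 and 12, and leaving out the P75 IHC library left 264 and 24. In bulk libraries, fewer cells of a type and less RNA per cell cannot be told apart.

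**Figure D1:**
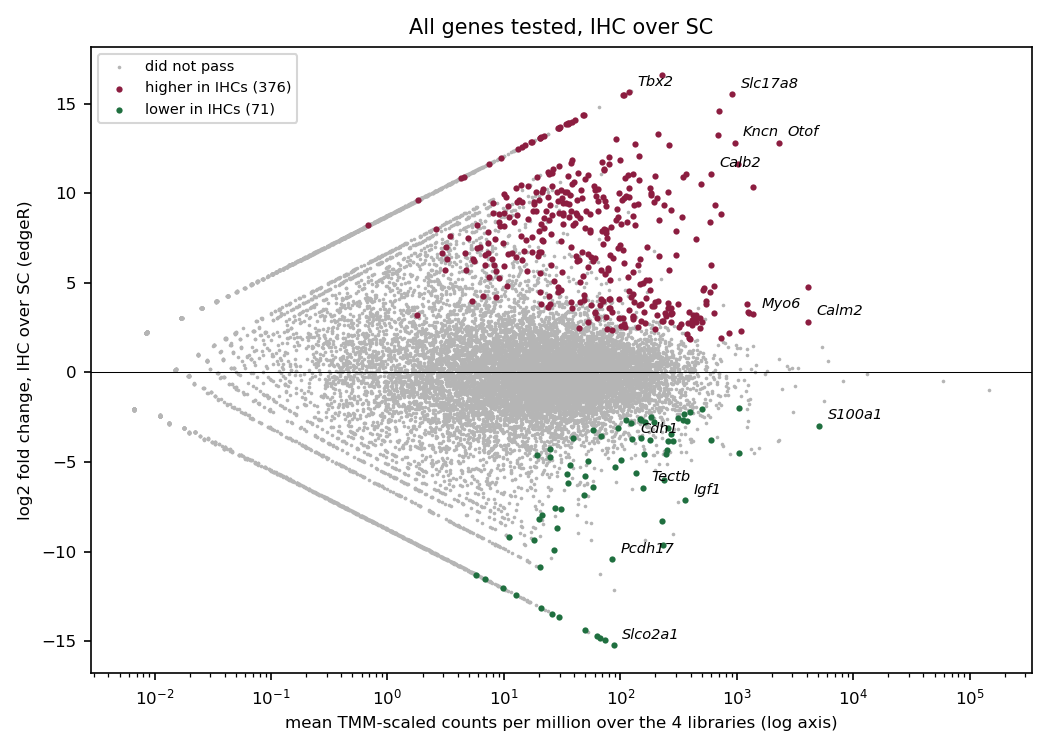
Log2 fold change of IHCs over SCs (y axis) against the mean CPM of the 4 libraries (x axis, log scale), with 1 point per gene tested. The 376 genes higher in IHCs (dark red) spread over fold changes far from 0 and the 71 genes lower (green) are fewer; for genes with no count in a cell type the plotted fold change depends on the prior count.

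The labelled cell type was checked first. Of 12 general hair cell markers, 11 were higher in IHCs (6 by limma-voom), and the exception was *Calb1*. *Pvalb*, 1 of the 12, is the gene whose Cre line marked the IHCs, so its level is not independent of the label. The 12 together reached 9182 and 8382 CPM in IHCs and 365.2 and 364.1 CPM in SCs. Most of the sums in SCs came from *Myo6* (277 and 246 CPM) and *Myo7a* (82.9 and 112 CPM). Most of the sums in IHCs came from *Otof*, which is also in the list of IHC markers, and *Myo6* (2604 and 2426 CPM). *Otof*, which encodes otoferlin (chr5:30669351-30764305, minus strand, mm9), was at 0.622 and 0.637 CPM in SCs against 5009.9 and 4216 CPM in IHCs. *Calb2*, which encodes the calcium buffer calretinin (chr8:112661402-112692110, minus strand), was at 0.622 and 0.478 CPM in SCs against 1045 and 1369.9 CPM in IHCs. *Tbx2*, a T-box factor of IHC identity (chr11:85646053-85655450, plus strand), had no count in SCs and 272 and 198 CPM in IHCs. The 2 IHC libraries were close to each other for all of these genes and no SC library came near them. The differences were 12.83 ± 0.63, FDR = 3.86e-06 for *Otof*, 11.10 ± 0.66, FDR = 8.47e-06 for *Calb2* and at least 4725-fold higher for *Tbx2* (FDR = 0.00231). *Slc17a8*, which encodes VGLUT3 (chr10:89036765-89083998, minus strand), had 1 and 1 counts in SCs and 1907 and 1763 CPM in IHCs, a ratio of 55209 with a 95% counting interval from 15283 to 455881 (FDR = 0.00219). All 4 tested IHC markers were higher, with a list median of 14.19, or 12.52 with *Tbx2* at its bound. The fifth, *Fgf8*, a ligand of developing IHCs, had no count in either IHC library and was not tested. Summed over the 5 markers, the level was 8233 and 7547 CPM in IHCs beside 1.29 and 1.17 CPM in SCs.

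Markers of OHCs were compared between the IHC libraries and the other hair cell type. *Slc26a5* encodes the OHC motor prestin, whose YFP knock-in marked the OHCs, so its level in OHCs is not independent of the label. It was at 0.755 and 0.531 CPM in SCs against 1.31 and 0.859 CPM in IHCs and 3789 and 2749 CPM in OHCs. *Lmod3*, an actin-nucleating leiomodin, was at 0.622 and 0.584 CPM in SCs against 0.135 and 0.172 CPM in IHCs and 558 and 344 CPM in OHCs. Both genes were at most at 1.31 CPM in SCs and IHCs, with differences of IHCs from OHCs of -11.55 (FDR = 9.26e-04) and -11.48 (FDR = 0.00101). *Ocm*, which encodes the OHC calcium buffer oncomodulin, lay between, with 2.71 and 3.16 CPM in SCs against 239 and 68.6 CPM in IHCs and 7562 and 9278 CPM in OHCs. It was higher in IHCs than in SCs (5.71 ± 0.69, FDR = 0.00107) and lower than in OHCs (-5.77, FDR = 0.00368). *Sall3*, a zinc-finger factor also put among OHC markers, was at 10.1 and 39.9 CPM in SCs against 244 and 549 CPM in IHCs, and its difference from the 623 and 271 CPM of OHCs did not pass (FDR = 0.96). Its call against SCs (3.99 ± 0.82, FDR = 0.0263) was lost without the P27 SC library (FDR = 0.123) or the P75 IHC library (FDR = 0.122). Over all genes tested, 165 were higher (0.977%) and 82 lower (0.485%) in IHCs than in OHCs.

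Of 15 hair cell transcription factors, 5 were higher in IHCs and 10 did not pass, with a median of -0.27. *Pou4f3*, which keeps hair cells alive, was at 0.355 and 0.584 CPM in SCs against 404 and 420.4 CPM in IHCs. *Gfi1*, a repressor under the control of POU4F3, was at 0 and 0.106 CPM in SCs against 312 and 268 CPM in IHCs. *Barhl1*, a homeobox gene of hair cell maintenance, was at 0.267 and 0.266 CPM in SCs against 17.4 and 41.5 CPM in IHCs. All of these had both IHC libraries above both SC libraries, with differences of 9.74 ± 0.64, FDR = 1.36e-05 for *Pou4f3*, 12.10 ± 1.44, FDR = 9.68e-04 for *Gfi1* and 6.77 ± 1.12, FDR = 0.0082 for *Barhl1*. *Lhx3*, a LIM homeobox gene, was at 0.0888 and 0.186 CPM in SCs against 27.8 and 1.34 CPM in IHCs, with the P74 IHC library far above the P75 IHC library (6.64 ± 1.49, FDR = 0.0418). Without the P74 IHC library the FDR of *Lhx3* was 0.28, without the P27 SC library it was 0.203 and without the P26 SC library it was 0.172. *Barhl1* also missed the threshold without the P27 SC library (FDR = 0.0694) or the P26 SC library (FDR = 0.0722).

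Factors of early hair cell development or of the otic lineage did not pass the test. *Atoh1*, which starts hair cell differentiation, had 0.267 and 1.91 CPM in SCs and no count in IHCs, at least 25.4-fold lower (FDR = 0.0677). *Ikzf2*, the OHC factor Helios, was at 39.9 and 296 CPM in SCs against 9.46 and 24.2 CPM in IHCs (-3.32 ± 0.90, FDR = 0.0903), and its 502 and 491 CPM in OHCs lay above IHCs (-4.88, FDR = 0.0349, and 0.0637 to 0.203 without 1 of the IHC or OHC libraries). *Gata3* was at 857 and 834 CPM in SCs against 427 and 326 CPM in IHCs (-1.17 ± 0.55, FDR = 0.298). *Eya1* was at 342 and 379.6 CPM in SCs against 111 and 77.3 CPM in IHCs (-1.94 ± 0.55, FDR = 0.106). *Isl1* was at 143 and 120.3 CPM in SCs against 77.4 and 25.7 CPM in IHCs (-1.35 ± 0.70, FDR = 0.337). None of these libraries overlapped between the cell types.

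Genes of mechanotransduction and the tip link were higher in IHCs for 7 of 12 members, 5 did not pass, and the median was 7.31. *Tmc1*, a pore subunit of the transduction channel, was at 0.222 and 0.266 CPM in SCs against 249 and 184 CPM in IHCs. *Tmie*, a subunit needed for its gating, was at 0.0888 and 0.266 CPM in SCs against 106 and 63.7 CPM in IHCs. *Lhfpl5*, which ties the channel to the tip link, was at 0.355 and 0.823 CPM in SCs against 184 and 149.5 CPM in IHCs. All IHC values were far above all SC values, with differences of 9.76 ± 1.40, FDR = 0.00327 for *Tmc1*, 8.80 ± 0.97, FDR = 5.81e-04 for *Tmie* and 8.11 ± 0.81, FDR = 2.79e-04 for *Lhfpl5*. *Cib2*, a calcium-binding partner of TMC proteins, was at 0.666 and 8.61 CPM in SCs against 489 and 363 CPM in IHCs (6.51 ± 1.02, FDR = 0.00575). *Tomt*, which is needed to bring TMC proteins to the bundle, had 1 and 0 counts in SCs and 27.3 and 14.1 CPM in IHCs, a ratio of 1249 with a 95% counting interval from 224 to 49352 (FDR = 0.00977). Without the P26 SC library the FDR of *Tomt* was 0.0631.

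Of the 2 tip link cadherins, *Cdh23* was called and *Pcdh15* was not. *Cdh23*, which forms the upper part of the tip link, was at 0.755 and 1.57 CPM in SCs against 441 and 423 CPM in IHCs (8.52 ± 0.84, FDR = 2.63e-04). *Pcdh15*, which forms the lower part, was at 128 and 269 CPM in SCs against 189 and 184 CPM in IHCs, with overlapping libraries (-0.09 ± 0.54, FDR = 0.977). *Myo7a*, the motor at the upper end of the link, was at 82.9 and 112 CPM in SCs against 621 and 841 CPM in IHCs (2.91 ± 0.48, FDR = 0.00842), and missed the threshold without the P27 SC library (FDR = 0.0671) or the P75 IHC library (FDR = 0.0514). The scaffold genes at the same site did not pass, although their libraries did not overlap. *Ush1c* (harmonin) was at 129.8 and 112 CPM in SCs against 601 and 499 CPM in IHCs (2.19 ± 0.59, FDR = 0.0899), and *Ush1g* (sans) had 0 and 1 counts in SCs and 4.11 and 25.4 CPM in IHCs (FDR = 0.0566). *Tmc2* and *Cib3*, relatives of *Tmc1* and *Cib2*, had no count in either IHC library.

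Of 27 genes of the stereocilia bundle, 13 were higher in IHCs and 14 did not pass, with a median of 2.90. *Ptprq*, a receptor phosphatase of the shaft connectors, was at 3.38 and 3.05 CPM in SCs against 1534 and 1366 CPM in IHCs (8.82 ± 0.45, FDR = 4.05e-06). *Loxhd1*, a deafness gene of the stereocilia membrane, was at 0.178 and 0.372 CPM in SCs against 344 and 376 CPM in IHCs (10.29 ± 0.74, FDR = 2.54e-05). *Espn*, the actin bundler espin, was at 0.133 and 0.239 CPM in SCs against 106 and 97.7 CPM in IHCs (9.02 ± 0.94, FDR = 4.05e-04). The IHC libraries were close to each other and clear of the SC libraries for these genes. *Fscn2*, an actin crosslinker, had 0 and 2 counts in SCs and 65.1 and 75.5 CPM in IHCs, a ratio of 2113 with a 95% counting interval from 585 to 17455 (FDR = 0.00172). *Xirp2*, which protects the actin core, was at 0.0888 and 0.159 CPM in SCs against 158 and 87.7 CPM in IHCs (9.86 ± 0.87, FDR = 1.22e-04). *Grxcr1* and *Grxcr2*, glutaredoxin-like genes of bundle growth, were at 23.8 and 58.9 CPM and 264 and 311 CPM in IHCs and at most 0.266 CPM in SCs. *Gpr98*, the ankle link receptor, was at 0.222 and 0.903 CPM in SCs against 64.1 and 85.8 CPM in IHCs (7.01 ± 0.92, FDR = 0.00178).

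Of the 5 myosin genes in the list, 3 were called. *Myo3a*, which carries espin, was at 0.533 and 0.186 CPM in SCs against 442 and 285 CPM in IHCs (10.01 ± 0.83, FDR = 7.68e-05). *Myo15*, which delivers whirlin to the tips, was at 8.71 and 1.46 CPM in SCs against 988 and 768 CPM in IHCs (7.44 ± 0.88, FDR = 9.58e-04). *Myo6*, which anchors the base of the stereocilia, was already measured well in SCs, at 277 and 246 CPM in SCs against 2604 and 2426 CPM in IHCs (3.27 ± 0.34, FDR = 4.05e-04). The others were *Myo3b*, at 0.0888 and 0.239 CPM in SCs with no count in IHCs (FDR = 0.135), and *Myo1h*, at 0.0888 and 3.98 CPM in SCs against 8.86 and 0.172 CPM in IHCs with overlapping libraries (1.14 ± 1.62, FDR = 0.763). *Whrn*, the gene of whirlin, was at 0.0888 and 0.106 CPM in SCs against 155 and 87.2 CPM in IHCs (10.20 ± 1.53, FDR = 0.00437), and its FDR was 0.0517 without the P27 SC library. *Strc*, which encodes the horizontal top connector stereocilin, was at 0.533 and 0.637 CPM in SCs against 143 and 134 CPM in IHCs and 4185 and 1878 CPM in OHCs. It was higher in IHCs than in SCs (7.87 ± 0.64, FDR = 6.60e-05) and lower in IHCs than in OHCs (-4.45, FDR = 0.00413).

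Other bundle genes did not pass. *Pls1* (plastin 1) was at 198 and 248 CPM in SCs against 119 and 194 CPM in IHCs (-0.51 ± 0.49, FDR = 0.626). *Rdx* (radixin) was at 211 and 93.6 CPM in SCs against 191 and 170.2 CPM in IHCs, with overlapping libraries (0.24 ± 0.53, FDR = 0.861). *Triobp*, which bundles the rootlet, was at 79.2 and 257 CPM in SCs against 561 and 488 CPM in IHCs (1.64 ± 0.59, FDR = 0.198).

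**Figure D2:**
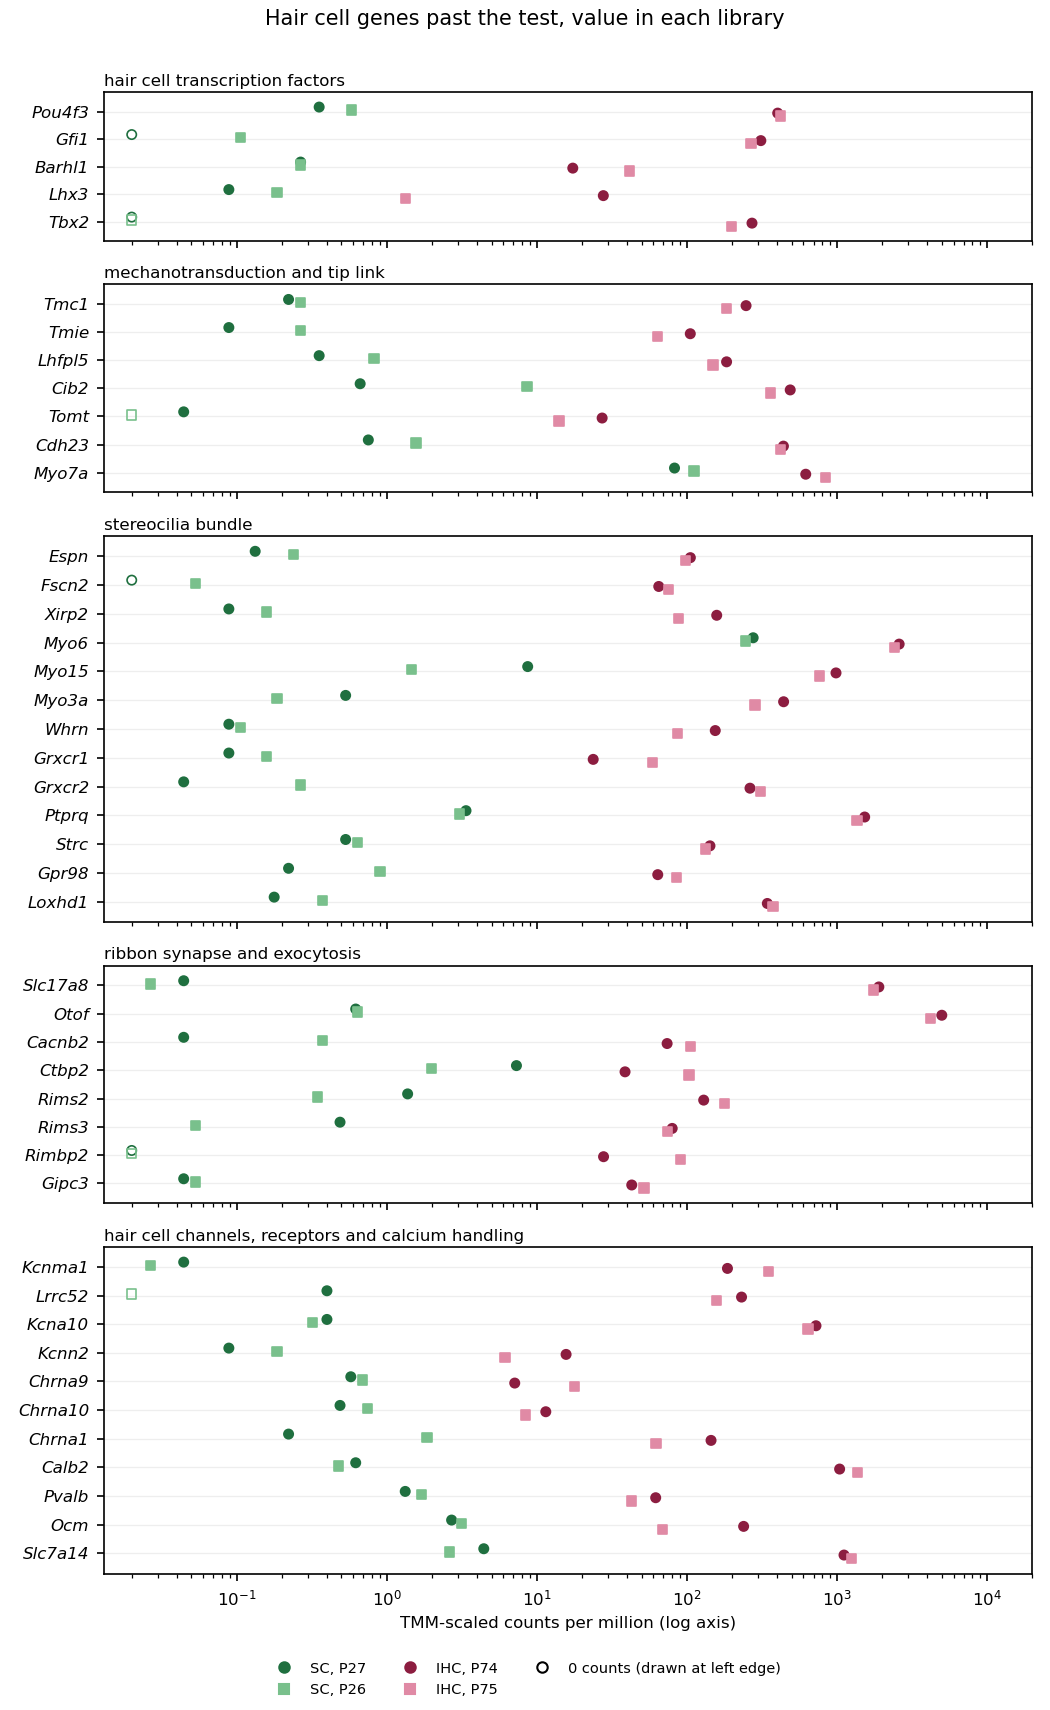
CPM (x axis, log scale) of every gene called in 5 hair cell lists (rows), with 1 point per library, SCs in greens and IHCs in reds; open points at the left edge are 0 counts. In every row both IHC points lie to the right of both SC points, and *Lhx3* has the widest gap between its IHC points.

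Of 23 genes of the ribbon synapse and exocytosis, 8 were higher in IHCs and 15 did not pass, with a median of 4.49. Beside *Otof* and *Slc17a8*, the called genes were *Rims2*, *Rims3*, *Rimbp2*, *Cacnb2*, *Gipc3* and *Ctbp2*. *Rims2*, a RIM scaffold, was at 1.38 and 0.345 CPM in SCs against 129.7 and 178 CPM in IHCs (7.50 ± 1.09, FDR = 0.00358) and 0.882 and 4.42 CPM in OHCs. The difference of IHCs from OHCs was 5.83 for *Rims2* (FDR = 0.0214), with an FDR of 0.0679 without the P75 IHC library and 0.129 without the P21 OHC library. *Rims3* was at 0.489 and 0.0531 CPM in SCs against 80 and 74.7 CPM in IHCs (8.21 ± 1.48, FDR = 0.0128, and FDR = 0.0807 without the P26 SC library). *Rimbp2*, which links RIM proteins to the channel, had no count in SCs and 27.9 and 91.2 CPM in IHCs, at least 1188-fold higher (FDR = 0.00925). The FDR of *Rimbp2* was 0.0549 without the P27 SC library and 0.0622 without the P26 SC library. *Cacnb2*, the beta subunit of the channel, was at 0.0444 and 0.372 CPM in SCs against 74 and 105 CPM in IHCs (8.64 ± 1.16, FDR = 0.00219). *Gipc3*, a PDZ protein of hair cells, had 1 and 2 counts in SCs and 43 and 51.9 CPM in IHCs, a ratio of 951 with a 95% counting interval from 325 to 4616 (FDR = 9.68e-04).

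*Ctbp2*, whose gene also makes the ribbon protein RIBEYE, was at 7.33 and 1.99 CPM in SCs against 38.8 and 103 CPM in IHCs (3.93 ± 0.90, FDR = 0.0441). Its call was lost without any 1 of the 4 libraries (FDR from 0.0518 to 0.216), and counts per gene do not separate RIBEYE from the CtBP2 repressor. *Cacna1d*, the pore subunit CaV1.3, did not pass, at 28.2 and 0.531 CPM in SCs against 374 and 271 CPM in IHCs (4.49 ± 1.26, FDR = 0.0996). *Cabp2*, which modulates CaV1.3, was at 0 and 23.2 CPM in SCs against 469 and 408 CPM in IHCs (5.23 ± 1.72, FDR = 0.162). Each had IHC libraries close together and SC libraries far apart. The large cytomatrix proteins gave overlapping or low values, with *Pclo* (piccolo) at 201 and 185 CPM in SCs against 244 and 139.7 CPM in IHCs (-0.01 ± 0.56, FDR = 1) and *Bsn* (bassoon) at 3.78 and 0.133 CPM in SCs against 23.7 and 9.86 CPM in IHCs (3.11 ± 1.39, FDR = 0.281).

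The fusion machinery of conventional synapses was called for 1 of 13 genes, 12 did not pass, and the median was 2.60. *Snap25*, a plasma membrane SNARE, was the gene called, at 1.11 and 0.637 CPM in SCs against 219 and 308 CPM in IHCs (8.24 ± 0.81, FDR = 2.68e-04). *Syt1*, the fast calcium sensor of central synapses, was at 1.42 and 0.0266 CPM in SCs against 1.01 and 7.73 CPM in IHCs, with overlapping libraries (2.60 ± 2.02, FDR = 0.533). *Syt2* was at 0.267 and 0.0531 CPM in SCs against 64.6 and 18.2 CPM in IHCs (8.02 ± 2.0, FDR = 0.0655). *Cplx1*, a complexin, had 2 and 0 counts in SCs and 14.9 and 51.1 CPM in IHCs (FDR = 0.0808). The libraries of *Syt2* and *Cplx1* did not overlap.

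Of 21 genes for channels, receptors and calcium handling, 11 were higher in IHCs and 10 did not pass, with a median of 5.11. *Kcnma1*, the BK potassium channel that speeds the IHC receptor potential, had 1 and 1 counts in SCs and 187 and 351 CPM in IHCs, a ratio of 8056 with a 95% counting interval from 2229.7 to 66525 (FDR = 2.86e-04). *Lrrc52*, a BK auxiliary subunit, was at 0.4 and 0 CPM in SCs against 232 and 158 CPM in IHCs (10.01 ± 1.72, FDR = 0.00982). *Kcna10*, a Shaker-type channel, was at 0.4 and 0.319 CPM in SCs against 727 and 642 CPM in IHCs (10.89 ± 0.70, FDR = 1.36e-05). The differences of these potassium channel genes between IHCs and OHCs did not pass (FDR = 0.924, 0.924 and 0.436). *Slc7a14*, a transporter of the cationic amino acid transporter family, was at 4.44 and 2.63 CPM in SCs against 1117 and 1248 CPM in IHCs and 6.52 and 4.8 CPM in OHCs. It was higher in IHCs than in SCs (8.39 ± 0.72, FDR = 1.01e-04) and in OHCs (7.71, FDR = 0.00101).

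The receptor genes of the efferent synapse were low in IHCs. *Chrna9* was at 0.577 and 0.691 CPM in SCs against 7.14 and 17.8 CPM in IHCs and 405 and 134 CPM in OHCs. *Chrna10*, the partner subunit, was at 0.489 and 0.744 CPM in SCs against 11.5 and 8.39 CPM in IHCs and 1467 and 894 CPM in OHCs. Both lay above SCs (4.28 ± 0.72, FDR = 0.00886 and 3.99 ± 0.54, FDR = 0.00231) and below OHCs (-4.43, FDR = 0.0161, and -6.89, FDR = 0.00101). The call of *Chrna9* against SCs was lost without the P27 SC library (FDR = 0.0739) or the P26 SC library (FDR = 0.065), and its call against OHCs without the P74 IHC library (FDR = 0.0929), the P75 IHC library (FDR = 0.0528) or the P21 OHC library (FDR = 0.0722). *Kcnn2*, the SK2 channel coupled to this receptor, was at 0.0888 and 0.186 CPM in SCs against 15.7 and 6.15 CPM in IHCs (6.22 ± 0.91, FDR = 0.00365) and 228 and 203 CPM in OHCs (-4.30 for IHCs over OHCs, FDR = 0.0303, and 0.129, 0.0845 and 0.184 without the P21 OHC library, the P74 IHC library and the P75 IHC library). *Chrna1*, the muscle-type subunit, was at 0.222 and 1.86 CPM in SCs against 145 and 62.3 CPM in IHCs and only 1.32 and 8.21 CPM in OHCs. Its call against SCs (6.61 ± 1.38, FDR = 0.0288) was lost without the P27 SC library (FDR = 0.125) or the P74 IHC library (FDR = 0.104), and its difference from OHCs did not pass (FDR = 0.124).

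Genes of calcium buffers included called and uncalled ones. *Calb2* had 43.6 and 44.1 CPM in OHCs, which IHCs exceeded by 4.78 (FDR = 0.00144). *Pvalb*, the parvalbumin gene whose Cre line marked the IHCs, was at 1.33 and 1.7 CPM in SCs against 62.1 and 42.9 CPM in IHCs (5.11 ± 0.62, FDR = 0.00107). *Calb1* (calbindin) was at 1.33 and 1.59 CPM in SCs against 0.202 and 0 CPM in IHCs and did not pass (-3.79 ± 1.45, FDR = 0.222). The inward rectifier *Kcnj2* had 9.42 and 10.8 CPM in SCs and no count in IHCs, at least 202-fold lower without passing the test (FDR = 0.0613).

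Genes outside the lists were also among those with the smallest p-values. *Apba1*, a presynaptic adaptor, was at 0.666 and 0.611 CPM in SCs against 2110.2 and 1973 CPM in IHCs (11.63 ± 0.57, FDR = 3.86e-06). *Kncn*, which encodes the apical hair cell protein kinocilin (chr4:115557005-115562131, plus strand), was at 0.222 and 0.292 CPM in SCs against 2046 and 1785 CPM in IHCs (12.82 ± 0.73, FDR = 8.35e-06). *Homer2*, a scaffold of glutamate receptor signalling, was at 0.711 and 0.611 CPM in SCs against 948 and 1000.4 CPM in IHCs (10.52 ± 0.61, FDR = 8.41e-06). *Ap3b2*, the neuronal AP-3 adaptor subunit, and *Snap91*, a clathrin assembly protein, were at 695 and 763 and at 469 and 325 CPM in IHCs and at 0.222 and 0.425 and at 0.178 and 0.212 CPM in SCs. The libraries of the cell types were far apart for all 5 genes, whose differences between IHCs and OHCs did not pass (FDR from 0.357 to 0.717).

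Most of the called genes with the highest CPM in IHCs were already measured in SCs. *Calm2*, a calmodulin gene, was at 1096 and 899.7 CPM in SCs against 7317 and 6943 CPM in IHCs (2.84 ± 0.34, FDR = 9.68e-04), and IHCs exceeded the 1472 and 1966 CPM of OHCs by 2.05 (FDR = 0.0161, and 0.0578, 0.0845 and 0.0762 without the P21 OHC library, the P74 IHC library and the P75 IHC library). *Arfgef1*, an exchange factor of ARF GTPases, was at 252 and 216 CPM in SCs against 2485 and 2130.4 CPM in IHCs (3.30 ± 0.41, FDR = 0.00123). *Arf3*, such a GTPase, was at 218 and 219 CPM in SCs against 1997 and 2546 CPM in IHCs (3.38 ± 0.45, FDR = 0.00191). The libraries of each cell type were close to each other for all of these. *Pgm2l1*, which makes glucose 1,6-bisphosphate, was at 124 and 195 CPM in SCs against 2523 and 2006 CPM in IHCs (3.83 ± 0.44, FDR = 8.20e-04) and exceeded the 441 and 337 CPM of OHCs by 2.54 (FDR = 0.0187, and 0.0562, 0.0904 and 0.0642 without the same libraries). *Chst2*, a sulfotransferase, had little in SCs, as did *Otof* among these genes, at 3.78 and 0.452 CPM in SCs against 2882 and 2659 CPM in IHCs (10.37 ± 1.11, FDR = 4.76e-04).

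On the side of the supporting cells, most genes were lower in IHCs but few passed the test. The medians of the 7 supporting cell lists lay from -2.28 to -0.61, against 0.00 over all genes tested. *Jag2*, *Tuba8* and *Tecta* of these lists were called higher, and 3 members were called lower. Over all genes tested, 2.23% were called higher and 0.420% lower. *Cdkn1b*, which encodes p27Kip1, was at 408 and 267 CPM in SCs against 36.7 and 13.7 CPM in IHCs (-3.74 ± 0.84, FDR = 0.0406). *S100a1*, a calcium-binding protein of Deiters' and pillar cells (chr3:90314956-90318314, minus strand), was at 7255 and 10808 CPM in SCs against 1233 and 1079 CPM in IHCs (-2.97 ± 0.60, FDR = 0.0251). *Tectb*, which encodes beta-tectorin of the tectorial membrane (chr19:55255223-55270803, plus strand), was at 292 and 331 CPM in SCs against 4.75 and 2.47 CPM in IHCs (-6.43 ± 1.33, FDR = 0.0279). Both SC libraries lay above both IHC libraries for these genes. All 3 calls were nevertheless lost without any 1 of the 4 libraries (FDR from 0.0517 to 0.24).

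Of 13 supporting cell transcription factors and *Cdkn1b*, the last was lower and all 13 factors did not pass, with a median of -1.64. *Sox2*, the factor that marks supporting cells, was at 77.5 and 77.1 CPM in SCs against 14.6 and 8.8 CPM in IHCs (-2.72 ± 1.66, FDR = 0.411). *Sox9* was at 402 and 242 CPM in SCs against 96 and 64.5 CPM in IHCs (-2.0 ± 1.09, FDR = 0.356). *Sox10* was at 190.2 and 149 CPM in SCs against 69.3 and 99.7 CPM in IHCs (-1.0 ± 1.25, FDR = 0.72). Both IHC libraries lay below both SC libraries for these SOX genes and none was at 0 counts. In OHCs *Sox2* had no count, *Sox9* 1.23 and 0.0842 CPM and *Sox10* 0.0882 and 0.126 CPM, and IHCs exceeded OHCs by 7.02 for *Sox9* (FDR = 0.0345) and 9.51 for *Sox10* (FDR = 0.034). Both of those calls were lost without any 1 of the IHC and OHC libraries. *Zbtb20*, a zinc-finger repressor, was at 5231 and 4781 CPM in SCs against 1022 and 1145 CPM in IHCs (-2.21 ± 0.54, FDR = 0.059). The nuclear receptor genes *Rora* and *Rorb* went the other way, at 194 and 524 CPM in SCs against 1069 and 983 CPM in IHCs and 641 and 1010.3 CPM in SCs against 1277 and 1919 CPM in IHCs, without passing (FDR = 0.226 and FDR = 0.422).

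The 11 markers of Deiters' and pillar cells summed to 1601 and 2229.5 CPM in SCs, 915 and 742 CPM in IHCs and 20.4 and 11.8 CPM in OHCs. *Gjb2* alone gave 611 and 468 CPM of the sums in IHCs, and 124 and 393 CPM of those in SCs. Of the 11, 1 (*Cdkn1b*) was lower in IHCs than in SCs and 10 did not pass, while *Sox9*, *Jag1*, *Hes1* and *Gjb2* were higher in IHCs than in OHCs. Those 4 calls were lost without the P21 OHC library, at an FDR of 0.0975 for *Sox9*, 0.107 for *Jag1*, 0.276 for *Hes1* and 0.21 for *Gjb2*. Without either IHC library all 4 were lost as well, at FDR values from 0.0531 (*Gjb2* without the P75 IHC library) to 0.131 (*Hes1* without the P75 IHC library), and without the P22 OHC library *Jag1* alone kept its call. The 5 markers of inner phalangeal and border cells, which surround IHCs, summed to 92.8 and 165.7 CPM in SCs, 280.2 and 227 CPM in IHCs and 36.2 and 18.5 CPM in OHCs, with none called among 4 tested by edgeR, limma-voom or DESeq2 and 0 at an unadjusted p under 0.05. *Slc1a3* gave most of that sum in IHCs. Other markers were at 34.1 and 29.1 CPM (*Lfng*), 1.48 and 0.206 CPM (*Hes5*) and 0.0337 and 0.103 CPM (*Gjb1*) in IHCs, and *Lfng* was at 0.0882 and 0.505 CPM in OHCs. The part of supporting cell RNA in the IHC libraries in these differences was not tested.

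Of 20 Notch pathway genes, 1 was higher and 19 did not pass, with a median of -1.50. The gene called was the ligand *Jag2*, which hair cells present to their neighbours, at 0.133 and 0.691 CPM in SCs against 41.8 and 36.1 CPM in IHCs (6.51 ± 1.20, FDR = 0.0145, and FDR = 0.0881 without the P27 SC library). *Jag1*, the ligand of supporting cells, was at 136 and 377 CPM in SCs against 31.7 and 39.4 CPM in IHCs (-2.85 ± 0.93, FDR = 0.156). The effector *Hey1* was at 537 and 359 CPM in SCs against 2.49 and 40.4 CPM in IHCs (-4.38 ± 1.06, FDR = 0.0561). The effector *Hey2* was at 198 and 135 CPM in SCs against 11.3 and 8.9 CPM in IHCs (-4.04 ± 1.23, FDR = 0.129). For *Jag1*, *Hey1* and *Hey2* both IHC libraries lay below both SC libraries. *Hes1* was at 83.3 and 195 CPM in SCs against 11.8 and 36.8 CPM in IHCs (-2.52 ± 1.27, FDR = 0.328), and the receptor *Notch1* was at 153 and 46.5 CPM in SCs against 29 and 42.1 CPM in IHCs (-1.49 ± 1.0, FDR = 0.458). IHCs exceeded OHCs for *Notch1* by 8.27 (FDR = 0.0201) and for *Hey2* by 8.32 (FDR = 0.0359), and both calls were lost without the P21 OHC library (FDR = 0.158 and 0.268), the P22 OHC library or the P75 IHC library, that of *Hey2* also without the P74 IHC library.

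No FGF pathway gene was called by edgeR among 11 of 15 tested, with 4 at an unadjusted p under 0.05, while limma-voom and DESeq2 each called 1 higher and 3 lower and the test without either IHC library called 1 lower. *Fgfr3*, the receptor gene whose Cre line marked the SCs, was at 167 and 312 CPM in SCs against 17.3 and 0 CPM in IHCs (-4.79 ± 1.74, FDR = 0.201). *Spry2*, a feedback inhibitor, was at 249.5 and 362 CPM in SCs against 9.77 and 21.6 CPM in IHCs (-4.28 ± 1.59, FDR = 0.212). *Fgf10*, a ligand, went the other way, with 2 and 0 counts in SCs and 59.1 and 44.8 CPM in IHCs (FDR = 0.106). None of these libraries overlapped between the cell types.

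No gene for gap junctions or for potassium and glutamate uptake was called by edgeR among 14 of 17 tested, with 4 at an unadjusted p under 0.05, while limma-voom called 3 lower and DESeq2 4 lower. *Gjb2*, which encodes connexin 26 (chr14:57717437-57723539, minus strand), was at 124 and 393 CPM in SCs against 611 and 468 CPM in IHCs (1.06 ± 1.20, FDR = 0.684). *Slc1a3*, the glutamate transporter GLAST, was at 76.6 and 129 CPM in SCs against 243 and 193 CPM in IHCs (1.08 ± 1.57, FDR = 0.767). For both genes the IHC libraries lay above the SC libraries. *Gjb6*, which encodes connexin 30, was at 185 and 313 CPM in SCs against 89.9 and 95.5 CPM in IHCs (-1.43 ± 1.18, FDR = 0.561). The potassium channel *Kcnj16* was at 1871 and 2061 CPM in SCs against 434 and 531 CPM in IHCs (-2.03 ± 1.42, FDR = 0.476), and *Kcnj10* was at 367 and 867 CPM in SCs against 104 and 185 CPM in IHCs (-2.09 ± 2.03, FDR = 0.634). These had IHC libraries below the SC libraries. In OHCs *Gjb2* had 0.793 and 0.379 CPM and *Kcnj16* 0.793 and 0.8 CPM, which IHCs exceeded by 9.88 (FDR = 0.0252) and 9.23 (FDR = 0.0465), a call that for both genes was lost without any 1 of the IHC and OHC libraries. *Aqp4*, a water channel of supporting cells, was at 461 and 325 CPM in SCs against 1.52 and 35.4 CPM in IHCs (-4.41 ± 1.58, FDR = 0.197).

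**Figure D3:**
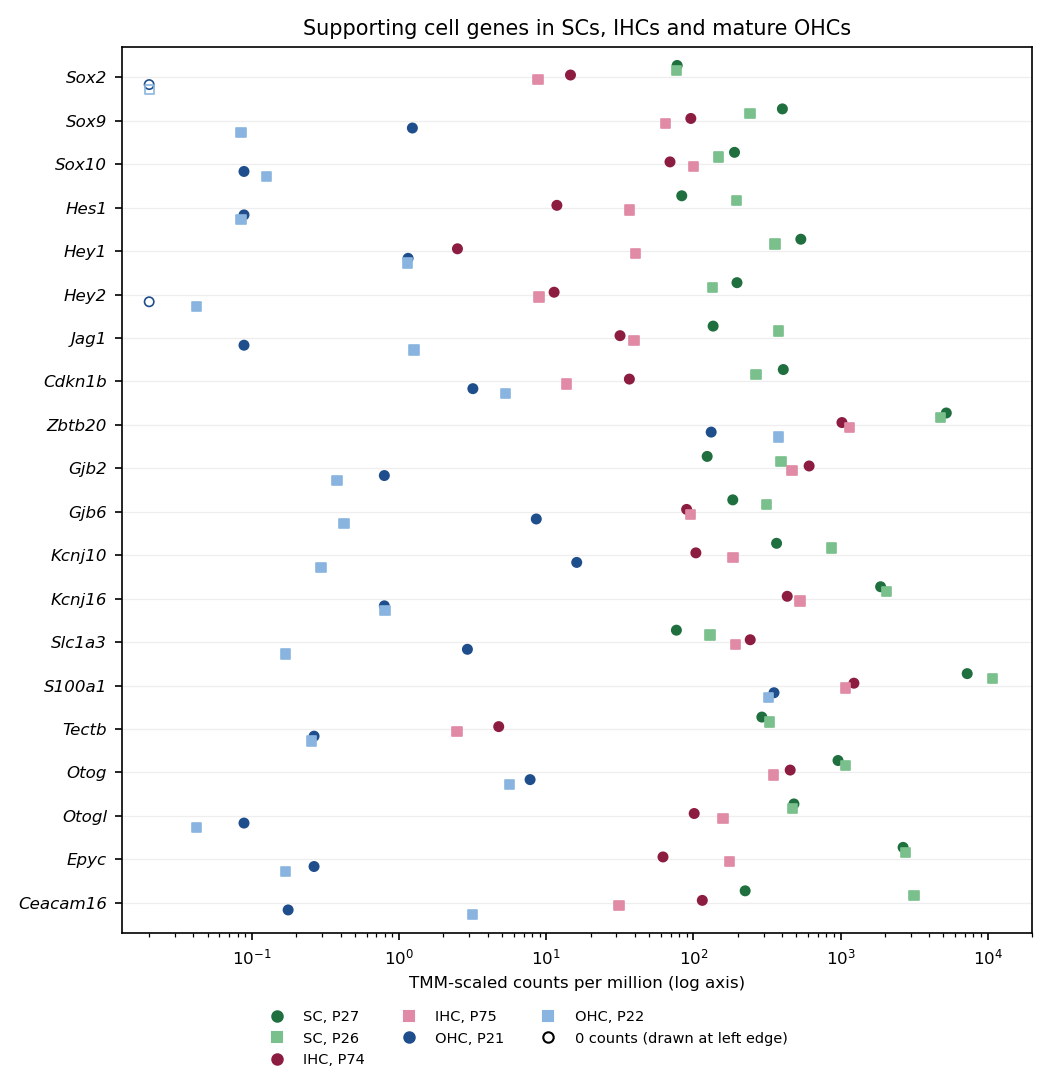
CPM (x axis, log scale) of 20 supporting cell genes (rows), chosen as examples with their values known, with 1 point per library, SCs in greens, IHCs in reds and mature OHCs in blues; open points at the left edge are 0 counts. For 18 of the 20 genes both IHC points lie below both SC points, the exceptions being *Gjb2* and *Slc1a3*, and the IHC points lie above the OHC points in all 20. Because of that choice, these counts describe the drawn genes only. Both IHC libraries lay below both SC libraries for 22.3% of all genes tested. Among the lists, this held for 10 of 14 supporting cell transcription factors and *Cdkn1b*, and for 6 of 19 glia-like genes.

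Some other members of the supporting cell lists did not have the order of IHCs below SCs and above OHCs. *Rora* and *Rorb* were above SCs in both IHC libraries, *Atp1b2*, a sodium pump subunit, was at 308 and 286 CPM in SCs against 62.5 and 89.5 CPM in IHCs and 471 and 309.5 CPM in OHCs, and *Fgfr3* was at 4.41 and 1.9 CPM in OHCs, which overlapped with IHCs.

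Of 23 tested genes of the supporting cell cytoskeleton, 1 was higher, 1 (*S100a1*) lower and 21 did not pass, with a median of -1.49. *Tuba8*, an alpha-tubulin, had 2 and 0 counts in SCs and 129.5 and 150.3 CPM in IHCs, a ratio of 4204 with a 95% counting interval from 1164 to 34723 (FDR = 0.00125), and 289.5 and 209 CPM in OHCs. *Tubb2b*, a beta-tubulin, was at 81.1 and 97.3 CPM in SCs against 6.9 and 14.7 CPM in IHCs (-3.05 ± 0.87, FDR = 0.106). *Anxa2*, an annexin, was at 737 and 238 CPM in SCs against 11.1 and 17.7 CPM in IHCs (-5.08 ± 1.21, FDR = 0.0611). Neither of the last 2 genes had overlapping libraries. *Vim*, which encodes vimentin, was at 47.4 and 1139 CPM in SCs against 25.7 and 61.4 CPM in IHCs, with SC libraries far apart and libraries that overlapped (-3.77 ± 1.78, FDR = 0.301). *Actb* was at 804 and 1269.9 CPM in SCs against 262 and 325 CPM in IHCs (-1.82 ± 0.50, FDR = 0.0957).

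Of 16 genes of the tectorial membrane and otic matrix, 1 was lower (*Tectb*), 1 higher and 14 did not pass, with a median of -1.98. The gene called higher was *Tecta* (alpha-tectorin), at 0 and 0.106 CPM in SCs against 11.3 and 17.8 CPM in IHCs (7.84 ± 1.75, FDR = 0.0466), and the call was lost without any 1 of the 4 libraries (FDR from 0.0875 to 0.166). *Epyc* (epiphycan) was at 2661 and 2767 CPM in SCs against 62.1 and 175 CPM in IHCs (-4.51 ± 2.04, FDR = 0.286). *Otog* (otogelin) was at 961 and 1079 CPM in SCs against 455 and 350.1 CPM in IHCs (-1.34 ± 1.12, FDR = 0.564). *Otogl*, its relative, was at 482 and 471 CPM in SCs against 101 and 159 CPM in IHCs (-1.87 ± 1.55, FDR = 0.561). The SC libraries were close to each other for these genes and lay above the IHC libraries. The fit also held the spread of cell types not compared here, such as *Epyc* at 919.5 and 4.34 CPM in converted hair cells and 247.1 and 1.55 CPM in OHCs at P7. A fit of only the 4 libraries gave 241 genes higher and 82 lower over all genes. The part of that spread in the results for these matrix genes was not tested. *Ceacam16*, a tectorial membrane glycoprotein, was at 225 and 3154 CPM in SCs against 115 and 31.2 CPM in IHCs, with SC libraries far apart (-4.53 ± 1.96, FDR = 0.268).

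No glia-like gene was called by edgeR among 19 of 20 tested, with 8 at an unadjusted p under 0.05 and a median of -0.61, while limma-voom called 3 higher and 2 lower and DESeq2 4 higher and 4 lower. *Dbi*, an acyl-CoA binding protein, was at 4289.6 and 4096 CPM in SCs against 230.4 and 361 CPM in IHCs (-3.83 ± 0.99, FDR = 0.0747). *Clu* (clusterin) was at 1158 and 4729 CPM in SCs against 166 and 158 CPM in IHCs (-4.19 ± 1.13, FDR = 0.0877). *Aldoc*, a glycolytic enzyme, was at 138 and 167 CPM in SCs against 2.66 and 8.49 CPM in IHCs (-4.77 ± 1.25, FDR = 0.0783). All had IHC libraries below SC libraries. *Ntrk2*, the neurotrophin receptor TrkB, had 3 and 0 counts in SCs and 145 and 126 CPM in IHCs (FDR = 0.0928), and *Ednrb*, an endothelin receptor, had 2 and 0 counts in SCs and 70.7 and 24.9 CPM in IHCs (FDR = 0.0838).

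**Figure D4:**
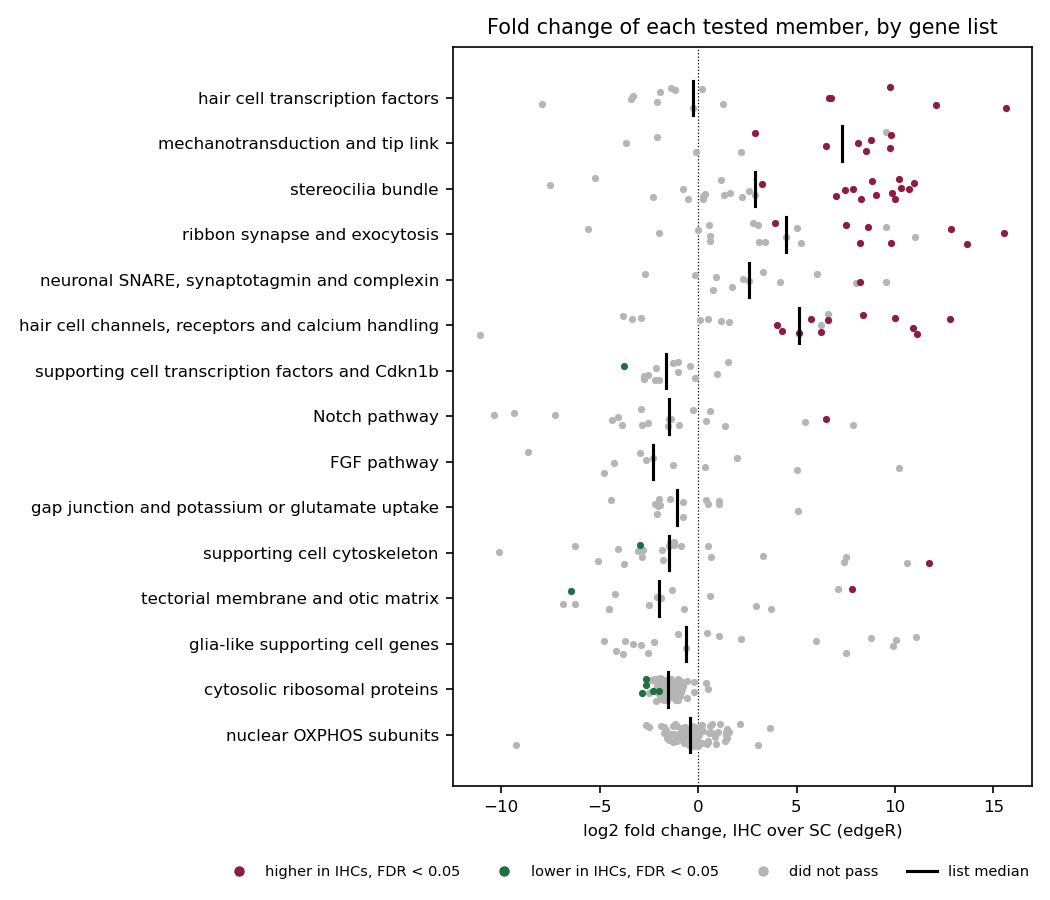
Log2 fold change of IHCs over SCs (x axis) of each tested member of 15 gene lists (rows), coloured where higher or lower at an FDR under 0.05, with the list median as a black bar. Apart from the transcription factors, the hair cell lists have medians from 2.60 to 7.31 and most of the called genes, whereas the 7 supporting cell lists have medians from -2.28 to -0.61 and few.

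Genes outside the lists had the smallest p-values among those lower in IHCs. *Slco2a1*, the prostaglandin transporter (chr9:102910817-102990179, plus strand), had 158 and 193 CPM in SCs and no count in IHCs, at least 3527-fold lower (FDR = 0.00144). *Pcdh17*, a protocadherin, was at 208 and 133 CPM in SCs against 0.101 and 0.137 CPM in IHCs (-10.43 ± 1.52, FDR = 0.0037). *Veph1*, a pleckstrin homology domain protein, was at 374 and 579 CPM in SCs against 24.8 and 15.3 CPM in IHCs (-4.57 ± 0.66, FDR = 0.00355). These were the 3 of 24 genes named as lower that kept their call without each of the 4 libraries in turn, against 50 of 65 named as higher. *Gstm7*, a glutathione transferase, was at 83.8 and 24.4 CPM in SCs and had 1 and 2 counts in IHCs, a ratio of SCs over IHCs of 913 with a 95% counting interval from 312 to 4430.0 (FDR = 0.00389, and 0.0505 without the P74 IHC library). *D0H4S114* was at 64.2 and 30.8 CPM in SCs against 1.75 and 3.16 CPM in IHCs (-4.27 ± 0.64, FDR = 0.00441, and FDR = 0.0575 without the P74 IHC library).

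*Cdh1*, which encodes E-cadherin of epithelial junctions (chr8:109127251-109194146, plus strand), was at 213 and 256 CPM in SCs against 16.4 and 19.4 CPM in IHCs and 0.353 and 0.716 CPM in OHCs. It was lower in IHCs than in SCs (-3.71 ± 0.56, FDR = 0.00446, and FDR = 0.0629 without the P74 IHC library) and higher than in OHCs (5.01, FDR = 0.00413). *Ablim3*, an actin-binding LIM protein, was at 25.1 and 59.6 CPM in SCs against 0.269 and 0.0687 CPM in IHCs and 269.8 and 317 CPM in OHCs. *Tmem229a*, a transmembrane protein, was at 203 and 747 CPM in SCs against 40.6 and 26.5 CPM in IHCs and 1822 and 1616 CPM in OHCs. The IHC libraries were thus the lowest of the 3 cell types for *Ablim3* and *Tmem229a*, with FDR values of 0.00887 and 0.0066 against SCs and 0.00746 and 0.0034 against OHCs. Without the P75 IHC library the calls against SCs were lost (FDR = 0.0775 and 0.0749), as was that of *Ablim3* against OHCs (FDR = 0.0626).

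The genes lower in IHCs with the highest CPM in SCs included *S100a13*, the neighbour of *S100a1* on the opposite strand (chr3:90318357-90328503, plus strand), at 1995 and 1992 CPM in SCs against 83.2 and 94.2 CPM in IHCs (-4.49 ± 0.92, FDR = 0.0268). *Igf1*, a growth factor, was at 1218 and 220.4 CPM in SCs against 7.28 and 3.06 CPM in IHCs (-7.12 ± 1.56, FDR = 0.0367). *Cobl*, an actin nucleator, was at 1694 and 525 CPM in SCs against 40.9 and 120.1 CPM in IHCs (-3.78 ± 0.84, FDR = 0.0383). *Cd2ap*, an adaptor of the actin cytoskeleton, was at 477 and 828 CPM in SCs against 122 and 78.4 CPM in IHCs (-2.70 ± 0.55, FDR = 0.025). No library of the cell types overlapped for these genes. *H3f3b*, which encodes histone H3.3, was at 660.1 and 632 CPM in SCs against 95.8 and 181 CPM in IHCs (-2.22 ± 0.51, FDR = 0.0471). Leaving out 1 library lost the call of *S100a13* and *H3f3b* for each of the 4 libraries, and that of *Igf1*, *Cobl* and *Cd2ap* for 3 of them (FDR from 0.0729 to 0.324), with *Igf1* and *Cobl* kept without the P26 SC library and *Cd2ap* without the P27 SC library. *Tpt1-ps3*, *Gm9846* and *Gm17241* were called lower too, but a pseudogene and short models can share reads with other copies and are uncertain.

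Of 80 tested genes of cytosolic ribosomal proteins, 5 were lower in IHCs and 75 did not pass, with a median of -1.55. Both IHC libraries lay below both SC libraries for 70 of the 80. Over all genes tested, 0.420% were called lower and 22.3% had both IHC libraries below both SC libraries. *Rps25* was at 578 and 589 CPM in SCs against 116 and 122 CPM in IHCs (-2.29 ± 0.43, FDR = 0.0173), and the others called were *Rpl34*, *Rpl41*, *Rps28* and *Rps3a*, with fold changes of -2.84, -1.99, -2.62 and -2.64. Without the P74 IHC library, the P75 IHC library or the P26 SC library none of the ribosomal genes was called, and without the P27 SC library there were 2. Limma-voom called 29 of them and DESeq2 31. These genes have many processed copies and their counts are uncertain. Nuclear genes of oxidative phosphorylation gave no call by edgeR among 81 tested, with 5 at an unadjusted p under 0.05 and a median of -0.42, and limma-voom and DESeq2 each called 1 higher and 1 lower.

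Markers of other cells were measured in the same libraries. The 12 spiral ganglion neuron markers summed to 43.7 and 16.4 CPM in SCs, 749.7 and 1058 CPM in IHCs and 1137 and 721.8 CPM in OHCs. Of 10 tested, 4 were higher in IHCs (2 without the P26 SC library) and 6 did not pass, with a median of 7.41, or 7.31 with genes at 0 counts at their bound. One of the 4, *Snap25*, is also a gene of the hair cell synapse list. *Nefm* was at 0.4 and 0.106 CPM in SCs against 163 and 94.7 CPM in IHCs (9.02 ± 1.08, FDR = 9.68e-04), *Nefl* at 0.533 and 0.0266 CPM in SCs against 115 and 358 CPM in IHCs (9.78 ± 1.71, FDR = 0.0111, and FDR = 0.0578 without the P26 SC library) and *Mtap2* (now *Map2*) at 41.4 and 15.5 CPM in SCs against 161 and 211 CPM in IHCs (2.71 ± 0.63, FDR = 0.0472, lost without any 1 of the 4 libraries). Of the 10 tested, 9 had both IHC libraries above both SC libraries, as had 24.9% of all genes tested. The share of all genes called higher was 2.23%. *Nefh* was at 0.133 and 0.0266 CPM in SCs against 80.7 and 72.9 CPM in IHCs without passing (9.90 ± 2.44, FDR = 0.0616), *Thy1*, *Rbfox3*, *Scn1a* and *Tubb3* were at 5.25 and 3.13, 0.472 and 9.66, 3.94 and 0.722 and 1.25 and 0.344 CPM in IHCs and at most at 0.0531 CPM in SCs, and *Prph* and *Calca* had no count in any of the 4 libraries. The 9 Schwann cell genes summed to 51.5 and 254.7 CPM in IHCs beside 38.5 and 84.1 CPM in SCs, with none of 6 called by edgeR, limma-voom or DESeq2 and 0 at an unadjusted p under 0.05. Macrophage, endothelial and stria vascularis markers each summed to at most 20.2 CPM in any of the 4 libraries, and the 1 call among them was a stria vascularis gene, higher in IHCs by DESeq2 alone. The part of these cells in the differences was not tested.

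Globin and other erythroid genes summed to 43.9 and 28.1 CPM in IHCs beside 0.267 and 0.372 CPM in SCs, with none of 3 called by edgeR, 2 of them at an unadjusted p under 0.05 and called higher by limma-voom and by DESeq2. Fibroblast genes summed to 140.1 and 229.6 CPM in IHCs beside 705.4 and 812 CPM in SCs, mostly from *Lum* (lumican) at 684 and 716 CPM in SCs against 21.6 and 42.6 CPM in IHCs (-4.45 ± 1.24, FDR = 0.107). The 1 of 6 called was *Pdgfra*, a receptor kinase, with 2 and 1 counts in SCs, 101 and 99.4 CPM in IHCs and 401 and 251 CPM in OHCs, a ratio of IHCs over SCs of 2008 with a 95% counting interval from 687 to 9741 (FDR = 5.81e-04). The part of these cells was not tested either.

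The 20 immediate early genes summed to 2418 and 9747 CPM in SCs, 847.2 and 2861 CPM in IHCs and 59.8 and 64.1 CPM in OHCs. None of 19 was called between IHCs and SCs by edgeR, with 5 at an unadjusted p under 0.05, none by limma-voom and 2 lower by DESeq2. *Fos* was at 102 and 907 CPM in SCs against 45.2 and 161 CPM in IHCs and 0.793 and 0.253 CPM in OHCs, and IHCs exceeded OHCs by 7.69 (FDR = 0.0193). *Jun* was at 464 and 1303 CPM in SCs against 201 and 401 CPM in IHCs and 4.5 and 4.97 CPM in OHCs, and IHCs exceeded OHCs by 5.99 (FDR = 0.00886). The P26 SC library was the highest library for both genes and the OHC libraries were the lowest. Both calls were lost without the P21 OHC library (FDR = 0.128 and 0.107), that of *Fos* also without the P22 OHC library or the P75 IHC library. The 14 heat shock and chaperone genes gave no call by edgeR, with 4 at an unadjusted p under 0.05 and a median of -0.89, and limma-voom called 3 higher and DESeq2 1 higher and 1 lower. *Xist*, transcribed from the inactive X chromosome, was at 2.31 and 1127 CPM in SCs against 1.18 and 1.03 CPM in IHCs, and the Y-linked *Eif2s3y* at 91.5 and 0.0531 CPM in SCs against 122 and 80 CPM in IHCs, so the P26 SC library stood apart from the other 3 libraries in sex-linked RNA. None of the 5 sex-linked genes was called by edgeR or limma-voom, with 1 at an unadjusted p under 0.05 and 1 lower by DESeq2, and the part of sex in the results was not tested.

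Of the 376 genes higher in IHCs than in SCs, 25 were also higher than in OHCs and 21 were lower than in OHCs. Of the 71 genes lower, *Ablim3*, *Gabarapl1*, *Tmem229a* and *Wipf3* were also lower than in OHCs and *Cdh1* was higher. The calls between IHCs and OHCs held without each of the 4 IHC and OHC libraries in turn for 11 of these 51 genes. Among the list members, 35 differed between IHCs and OHCs, and 8 of these kept the call without each of the 4 IHC and OHC libraries in turn, namely *Calb2*, *Chrna10*, *Lmod3*, *Ocm*, *Otof*, *Slc26a5*, *Slc7a14* and *Strc*. Of these, *Slc26a5* is the gene whose knock-in label marked the OHCs.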

How the data were processed

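Total RNA of handpicked cells was amplified with the Ovation RNA-Seq System V2 and sequenced. The authors aligned the reads to mm9 and deposited raw read counts per gene, 1 HTSeq table per library, and the submitters' processing notes name STAR, BWA, HTSeq and CASAVA 1.7. The library of each table was read from its name, because 4 of 10 tables were attached to another library's record, and the 4 libraries compared here were all read that way. Rows that name no gene were left out; reads on no gene are given as a share of the aligned reads.

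Of 34590 genes listed, 23415 had a count in at least 1 of the 10 libraries. Genes were filtered with filterByExpr by group, scaled by TMM, and fitted in 1 edgeR 4.0.16 quasi-likelihood model over all 10 libraries (R 4.3.3), with 5 residual degrees of freedom and a common dispersion of 1.12. The contrast was IHC minus SC, with Benjamini-Hochberg adjustment and a threshold of 0.05, and the SE was the log2 fold change over the square root of F. The contrast IHC minus OHC came from the same fit. The scripts were tested on simulated data. Alternatives used limma 3.58.1, DESeq2 1.42.0, other scaling, filters and samples, and those of the IHC minus OHC contrast were added after seeing the data.

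Members and gene lists were chosen with earlier results of these data known. Genes are named if they belong to a list, if they were among the 10 smallest p-values in a direction without overlap of the libraries, or among the 8 highest means in a direction. A few genes that meet this rule are not reported here. The observations name further genes, chosen after their values were seen. Counting intervals are exact, at 95%.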

Additional observations from a re-analysis of the deposited data

Results flagged for a closer look

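The difference of IHCs from SCs and that of mature OHCs from SCs share the SC libraries, so they were compared by the direct contrast of IHCs with OHCs, on the log2 scale, by edgeR. It passed for 13 genes of the marker lists of IHCs, hair cells, OHCs, and Deiters' and pillar cells. *Calb2* (4.78), *Otof* (3.48), *Tbx2* (6.87), *Gjb2* (9.88), *Hes1* (8.07), *Jag1* (5.63) and *Sox9* (7.02) were higher in IHCs. *Slc26a5* (-11.55), *Lmod3* (-11.48), *Chrna10* (-6.89), *Ocm* (-5.77), *Ikzf2* (-4.88) and *Chrna9* (-4.43) were lower in IHCs.

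Without 1 of the IHC or OHC libraries at a time, *Calb2*, *Otof*, *Slc26a5*, *Lmod3*, *Chrna10* and *Ocm* kept the call each time. *Tbx2* lost it each time (FDR = 0.0902 to 0.156), as did *Ikzf2* (0.0637 to 0.203), *Sox9* (0.0762 to 0.0975), *Hes1* (0.0712 to 0.276) and *Gjb2* (0.0531 to 0.21). *Jag1* and *Chrna9* lost it for 3 of the 4 libraries, and both kept it without the P22 OHC library.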

How the results depend on the processing

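The test gave 376 genes higher and 71 lower in IHCs than in SCs. Limma-voom gave 680 and 372, DESeq2 1424 and 1000, and edgeR without a filter 815 and 405. The share of higher genes among the calls was 84.1% in the test, 64.6% with limma-voom, 58.7% with DESeq2 and 66.8% without a filter. With only the 4 libraries in the fit the counts were 241 and 82. Relative log expression scaling (354 and 66), upper-quartile scaling (394 and 73) and a minimum of 10 counts (429 and 98) stayed within 1.5 times. Without 1 library at a time the counts ran from 214 to 264 and from 12 to 35. With files assigned to the records they were attached to, the counts were 0 and 0 by edgeR, with 1335 genes at an unadjusted p under 0.05, and 7 named genes reversed: *Barhl1* -0.46, *Chrna10* -2.57, *Chrna9* -4.75, *Gpr98* -0.50, *Jag2* -0.32, *Lhx3* -1.16 and *Pvalb* -2.51. Of 89 named genes, 45 kept direction and call under the 11 other alternatives. Among list members, 35 differed between IHCs and OHCs, 16 with limma-voom and 9 to 19 without 1 library at a time. Apart from that file assignment and what its construction shows, the cause of these changes was not tested. With 2 libraries per cell type, calls for genes with spread-out SC libraries are limited, and counts near 0 limit the size of many folds. No paired analysis was possible because the replicate numbers of IHCs and SCs in the labels are not shared.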

Other observations

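Several called genes outside the lists belong to membrane traffic. They were chosen after their values were seen. *Amph* (amphiphysin), which works in endocytosis, was at 0.311 and 0.0797 CPM in SCs against 144 and 150.3 CPM in IHCs (9.59 ± 1.09, FDR = 7.73e-04). *Synrg*, a partner of the AP-1 adaptor, was at 36 and 40.5 CPM in SCs against 1162 and 860.0 CPM in IHCs (4.72 ± 0.49, FDR = 3.76e-04). *Scg3* and *Cpe*, of the secretory granule, were at 0.222 and 0.239 CPM in SCs against 136 and 81.1 CPM in IHCs (8.85 ± 1.03, FDR = 8.62e-04) and at 0.8 and 0.531 CPM in SCs against 199 and 207 CPM in IHCs (8.26 ± 0.71, FDR = 9.80e-05). In all of these both IHC libraries lay far above both SC libraries. *Dnm1* and *Dnm3* encode dynamins, which cut endocytic vesicles from the membrane. *Dnm1* was at 5.46 and 7.07 CPM in SCs against 619.9 and 573 CPM in IHCs (6.57 ± 0.64, FDR = 2.53e-04) and 76.1 and 75.7 CPM in OHCs, where it was lower than in IHCs (2.97, FDR = 0.0274). *Dnm3* was at 1.24 and 0.266 CPM in SCs against 17.8 and 23.6 CPM in IHCs (4.80 ± 0.78, FDR = 0.00742) and 1969 and 933 CPM in OHCs, where it was higher than in IHCs (-6.13, FDR = 0.00693). Without 1 of the IHC or OHC libraries the call of *Dnm1* between the hair cells was lost each time, and that of *Dnm3* without the P74 IHC library (FDR = 0.0613) or the P75 IHC library (FDR = 0.0531).

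Genes of other functions were also higher in IHCs than in SCs. *Slc38a1*, a glutamine transporter, was at 55.8 and 25.2 CPM in SCs against 818 and 1161 CPM in IHCs (4.61 ± 0.68, FDR = 0.00389). *Clrn1*, an Usher syndrome gene, was at 0.0888 and 0.133 CPM in SCs against 296 and 218 CPM in IHCs (11.08 ± 0.75, FDR = 1.57e-05). *Atp2a3*, a calcium pump of the endoplasmic reticulum, had 2 and 1 counts in SCs and 1289 and 1548 CPM in IHCs, a ratio of 28420.0 with a 95% counting interval from 9725 to 137814, and 1.76 and 4.97 CPM in OHCs. IHCs exceeded OHCs by 8.70 for *Atp2a3* (FDR = 0.0105, and 0.128 without the P21 OHC library).

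On the side of the supporting cells, several called genes had no count in either IHC library. *Fzd9*, a WNT receptor, had 103 and 94.4 CPM in SCs (at least 1914-fold lower in IHCs, FDR = 0.00944). *Crhr1*, the receptor of corticotropin-releasing hormone, had 134 and 116 CPM in SCs (at least 2409-fold lower, FDR = 0.0309). *Enpp1*, which makes pyrophosphate, had 156 and 109.6 CPM in SCs (at least 2489-fold lower, FDR = 0.0288). The SC libraries were close to each other for these 3 genes. *Ptges*, a prostaglandin E synthase, had 8.4 and 14.8 CPM in SCs (at least 244-fold lower, FDR = 0.0432), beside the prostaglandin transporter gene *Slco2a1* of the report. *Aldh1a1*, which makes retinoic acid, was at 595 and 313 CPM in SCs against 0.943 and 1.99 CPM in IHCs (-8.27 ± 1.65, FDR = 0.0226). For the genes of this paragraph, the calls against SCs were not followed without 1 library at a time. Most genes named as lower in the report lost theirs in that way. *Gabarapl1*, of autophagy, was at 142 and 413 CPM in SCs against 11.9 and 31.4 CPM in IHCs (-3.68 ± 0.77, FDR = 0.0285) and 903 and 409 CPM in OHCs (-4.92 for IHCs over OHCs, FDR = 0.0193, and 0.108, 0.102 and 0.0602 without the P21 OHC, P74 IHC and P75 IHC library).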
